A study of Mus musculus with 8 samples.

Results

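The myelin lipid enzymes are 9 genes of the 54532 in the deposited gene table, taken by gene name: Ugt8a, Fa2h, Gal3st1, Cers2, Aspa, Elovl1, Elovl7, Fads1 and Fads2. Each name matched 1 row. They were followed in ribosome footprints, the RNA fragments that ribosomes protect from nuclease, and in mRNA. The tissue was labelled brain and came from male mice aged 3 months, either wild type (WT) or knockout for Nsun5 (KO), an enzyme that methylates ribosomal RNA. Mice of both genotypes shared a litter and were anaesthetised with pentobarbital sodium. The labels name no strain, allele or deleted exon. Footprint libraries numbered 4 for each genotype, and the tables hold a like-named mRNA library for every one of them. The protocol names 5 mice per genotype but links no library to an animal, so every p-value reflects only how far these libraries scatter.

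Myelin is a stack of glial membrane that is unusually rich in galactosylceramide and its sulfated form, sulfatide. Oligodendrocytes build both on ceramides with very long, often 2-hydroxylated acyl chains, and part of the carbon for these chains can come from acetate released from N-acetylaspartate. Ugt8a adds galactose to ceramide, Gal3st1 sulfates the product and Fa2h hydroxylates the acyl chain. Cers2 is the ceramide synthase that attaches very long acyl chains, and Elovl1 and Elovl7 catalyse the condensation step that lengthens fatty acids. Aspa cleaves N-acetylaspartate into acetate and aspartate. Fads1 and Fads2 are the front-end desaturases of polyunsaturated fatty acid synthesis, which other brain cells also carry out.

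Per unit of gene length, the 2 desaturases were the most abundant of the 9 in WT and Aspa the least. Levels are the authors' RPKM, read counts scaled by gene length and library size, which allow genes to be compared. Mean WT mRNA levels were 63.8 ± 2.29 RPKM for Fads1 and 62.9 ± 4.04 for Fads2 (SD, n = 4, as for all levels below). Ugt8a followed at 19.5 ± 1.30 RPKM, Fa2h at 16.9 ± 0.909 and Cers2 at 15.04 ± 1.06. Gal3st1 stood at 6.81 ± 0.450 RPKM, Elovl7 at 5.79 ± 0.399, Elovl1 at 4.71 ± 1.10 and Aspa at 3.85 ± 0.239. Neighbours in this order overlapped between libraries at every step but 2, from Fads2 to Ugt8a and from Cers2 to Gal3st1.

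In footprints the desaturases changed places at the top and the 4 enzymes of lowest mRNA level came in the opposite order, although neighbours among those 4 overlapped. Fads2 led at 58.2 ± 12.4 RPKM and Fads1 stood at 21.6 ± 3.60, with no overlap between their WT libraries. Ugt8a had 10.9 ± 2.35 RPKM, Fa2h 8.83 ± 1.27 and Cers2 7.77 ± 0.906. Aspa, Elovl1 and Elovl7 lay between 2.01 and 2.82 RPKM, and Gal3st1 was lowest at 0.899 ± 0.787. The WT log2 ratio of footprint to mRNA RPKM, with 0.1 added to each, was −0.13 ± 0.35 for Fads2, at percentile 89.9 of 9673 genes. Fads1 had −1.57 ± 0.24, at percentile 31.4, although both genes encode desaturases of the same pathway and lie in 1 cluster. The Gal3st1 ratio was −3.09 ± 1.10, at percentile 3.47, and it rested on 1, 4, 12 and 4 footprint counts. The median over the 9673 genes was −1.14, and the other 6 enzymes lay between percentiles 31.3 and 78.8. How the deposited gene length was defined is not given in the sources used here, and the order of RPKM levels between genes depends on it. In the footprint to mRNA ratio of a gene this length cancels, apart from the effect of the 0.1 added. Between genes the ratio still depends on the coding share of each transcript, as footprints come mainly from coding sequence. That share was not analysed. The deposited length was 3456 bases for Fads1 and 1508 for Fads2. Scaled by library size alone (CPM), their WT footprints overlapped, at 63.2 to 94.2 and 78.6 to 118.9. Their WT mRNA did not, at 211 to 228 and 89.4 to 104 CPM.

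**Figure D1:**
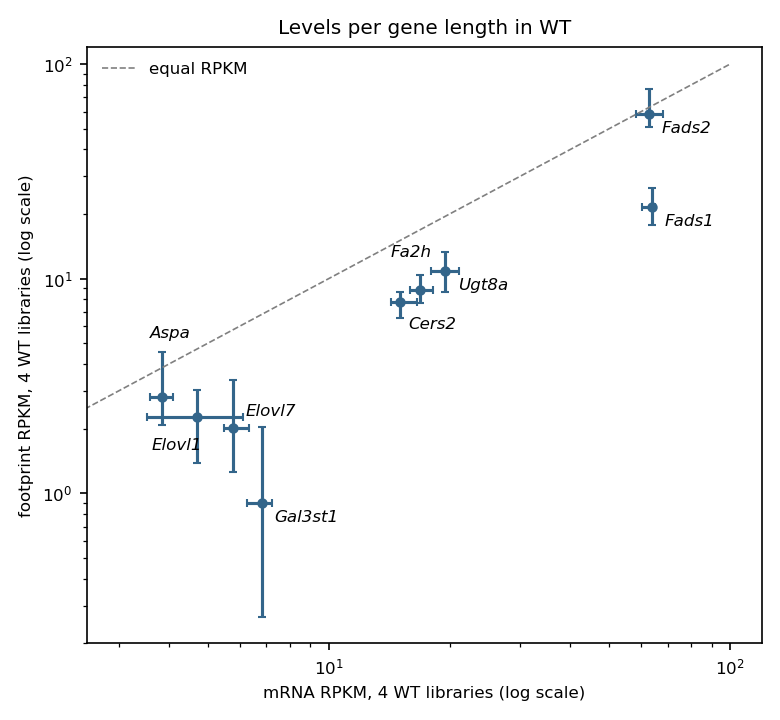
Mean WT footprint RPKM against mean WT mRNA RPKM for each of the 9 enzymes, both on log scales; bars run from the lowest to the highest of 4 libraries and the dashed line marks equal values. Fads1 and Fads2 share an mRNA level near 63 RPKM while their footprint levels are 21.6 and 58.2 RPKM, and Gal3st1 lies lowest in footprints.

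The genes lie on 6 chromosomes. In mm10, Ugt8a (ENSMUSG00000032854) spans chr3:125865271-125938619 on the minus strand and Cers2 (ENSMUSG00000015714) chr3:95314791-95323599 on the plus strand. Fa2h (ENSMUSG00000033579) spans chr8:111345135-111393824 (minus), Elovl1 (ENSMUSG00000006390) chr4:118428093-118432953 (plus) and Elovl7 (ENSMUSG00000021696) chr13:108214404-108285683 (plus). Gal3st1 (ENSMUSG00000049721) spans chr11:3983636-3999326 (plus) and Aspa (ENSMUSG00000020774) chr11:73304992-73329596 (minus). Fads2 (ENSMUSG00000024665, chr19:10064164-10101503, minus) and Fads1 (ENSMUSG00000010663, chr19:10182888-10196870, plus) are separated by 81.4 kb. Cers2 overlaps the opposite-strand gene Setdb1 at its end, and Elovl1 overlaps Cdc20. Whether the counting used strand is not given in the sources used here, so reads in those overlaps cannot be assigned with certainty.

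Promoter windows were available from RefSeq (GRCm38.p6) for 7 enzymes, in 11 windows. The 250 bases before the start site are printed for the 5 genes whose RefSeq start is at or within 33 bases of the start in the gene table: Ugt8a and Gal3st1 of the galactolipid branch, the elongases Elovl1 and Elovl7, and Fads2. A second Gal3st1 window, shifted by 15 bases, is not printed. Capitals mark matches to 4 letter patterns on either strand: ACAANG (a SOX core), GGGCGG (a GC box), CCAAT and TATAAA. The windows are chr3:125938653-125938902 (minus) for Ugt8a, chr11:3983386-3983635 (plus) for Gal3st1, chr4:118427843-118428092 (plus) for Elovl1, chr13:108214154-108214403 (plus) for Elovl7 and chr19:10101504-10101753 (minus) for Fads2. Each is written on the strand of its gene.
Ugt8a: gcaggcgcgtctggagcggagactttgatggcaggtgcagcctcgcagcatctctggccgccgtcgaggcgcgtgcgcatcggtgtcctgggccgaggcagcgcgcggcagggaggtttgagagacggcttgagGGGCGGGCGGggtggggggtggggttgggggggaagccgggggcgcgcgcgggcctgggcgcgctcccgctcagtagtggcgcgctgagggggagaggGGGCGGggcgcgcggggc
Gal3st1: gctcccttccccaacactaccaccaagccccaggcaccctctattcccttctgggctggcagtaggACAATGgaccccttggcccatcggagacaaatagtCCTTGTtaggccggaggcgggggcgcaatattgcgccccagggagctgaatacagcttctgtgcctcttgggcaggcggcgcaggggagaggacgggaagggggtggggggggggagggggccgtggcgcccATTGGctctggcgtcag
Elovl1: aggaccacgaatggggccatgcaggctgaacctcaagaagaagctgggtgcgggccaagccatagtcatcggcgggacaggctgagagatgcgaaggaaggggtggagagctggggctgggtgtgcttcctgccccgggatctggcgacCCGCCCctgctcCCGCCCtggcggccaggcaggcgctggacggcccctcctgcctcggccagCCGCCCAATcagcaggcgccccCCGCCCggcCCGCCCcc
Elovl7: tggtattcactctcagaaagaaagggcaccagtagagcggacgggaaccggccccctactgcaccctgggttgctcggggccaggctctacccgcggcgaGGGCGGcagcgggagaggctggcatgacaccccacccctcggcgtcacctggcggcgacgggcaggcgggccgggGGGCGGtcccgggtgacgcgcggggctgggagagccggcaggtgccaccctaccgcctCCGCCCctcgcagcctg
Fads2: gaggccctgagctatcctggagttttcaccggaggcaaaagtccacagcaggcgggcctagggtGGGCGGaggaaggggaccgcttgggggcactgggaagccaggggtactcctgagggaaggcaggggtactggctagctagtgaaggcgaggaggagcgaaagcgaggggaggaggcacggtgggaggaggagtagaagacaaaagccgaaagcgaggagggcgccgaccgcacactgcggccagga

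The Ugt8a window held 3 GC boxes, of which 2 overlap, and had a GC content of 76.8%, against a median of 52.4% over 32851 promoters. The Elovl1 window held 5 GC boxes and 1 CCAAT, which overlaps 1 of them. The Elovl7 window held 3 GC boxes and the Fads2 window 1. Gal3st1 had no GC box but 2 SOX cores and 1 CCAAT. Over all windows of the same length, 36.3% held a SOX core, 32.7% a GC box, 33.8% a CCAAT and 12.4% a TATAAA. Of the 11 windows of the enzymes, 2 held a SOX core, both of Gal3st1, 6 a GC box, 5 a CCAAT and 1, of Aspa, a TATAAA. A further pattern, CTGGNAC (a MYRF core), was in 16.1% of all windows and in 0 of these 11. These are letter matches only.

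The libraries differed in depth and makeup. mRNA libraries held 15.6 to 17.8 M counts (M, mega) on genes. Footprint libraries held 1.20 to 3.49 M in WT and 0.586 to 1.30 M in KO, with 0.233 M on protein-coding genes in KO library 3. WT libraries 1 and 2 were set off from the other 6 along the leading principal component of the mRNA levels, at −28.4 and −27.0, where the rest had 5.80 to 15.9. Nsun5 mRNA did not separate the groups, with 82 to 109 counts in WT and 83 to 124 in KO (log2 fold change 0.12 ± 0.15, SE, edgeR adjusted p = 0.820), so directions refer to libraries as labelled. Neuron markers summed to 6191 to 6664 CPM (counts scaled by library size) of mRNA in WT and 7173 to 7795 in KO. Hypothalamic neuropeptide genes summed to 3.23 to 112 CPM in WT and 1.86 to 9.38 in KO, and choroid plexus and ependyma markers to 311 to 1127 and 50.9 to 1150. The part of these differences in the results below was not tested. Astrocyte, microglia and endothelium sums overlapped between the groups. Schwann cell markers, of the other myelin-forming cell, summed to at most 2.54 CPM, with Pmp2 at 0.

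All 9 enzymes had a lower mean mRNA level in KO than in WT, by 17.1% to 26.6% in 7 of them, and 0 of 9 passed the test across all genes. The test was edgeR's quasi-likelihood test with Benjamini-Hochberg adjusted p under 0.05 over 13058 genes, of which 0% (0 genes) passed, with 1377 at an unadjusted p under 0.05. The enzymes at an unadjusted p under 0.05, all lower in KO, were 7 of 9, where 5.22% of all genes tested were. A log2 fold change below 0 was seen in 9 of 9 enzymes and in 51.4% of all genes. The median log2 fold change was −0.34 over the enzymes and −0.01 over all genes. In 6 enzymes every KO library lay below every WT library, as in 2.74% of all genes. DESeq2 gave an adjusted p for 7 of the 9, all but Gal3st1 and Elovl1, and called 2 of these 7, Ugt8a (adjusted p = 0.0314) and Elovl7 (adjusted p = 0.0245), where it called 0.94% of the genes it adjusted. Without WT libraries 1 and 2 the enzymes at an unadjusted p under 0.05, all lower, were 5 of 9, against 4.26% of all genes. In that fit, on fewer WT libraries, 9 of 9 enzymes were below 0 with a median of −0.36, where 6388 of 13013 genes were below 0.

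**Figure D2:**
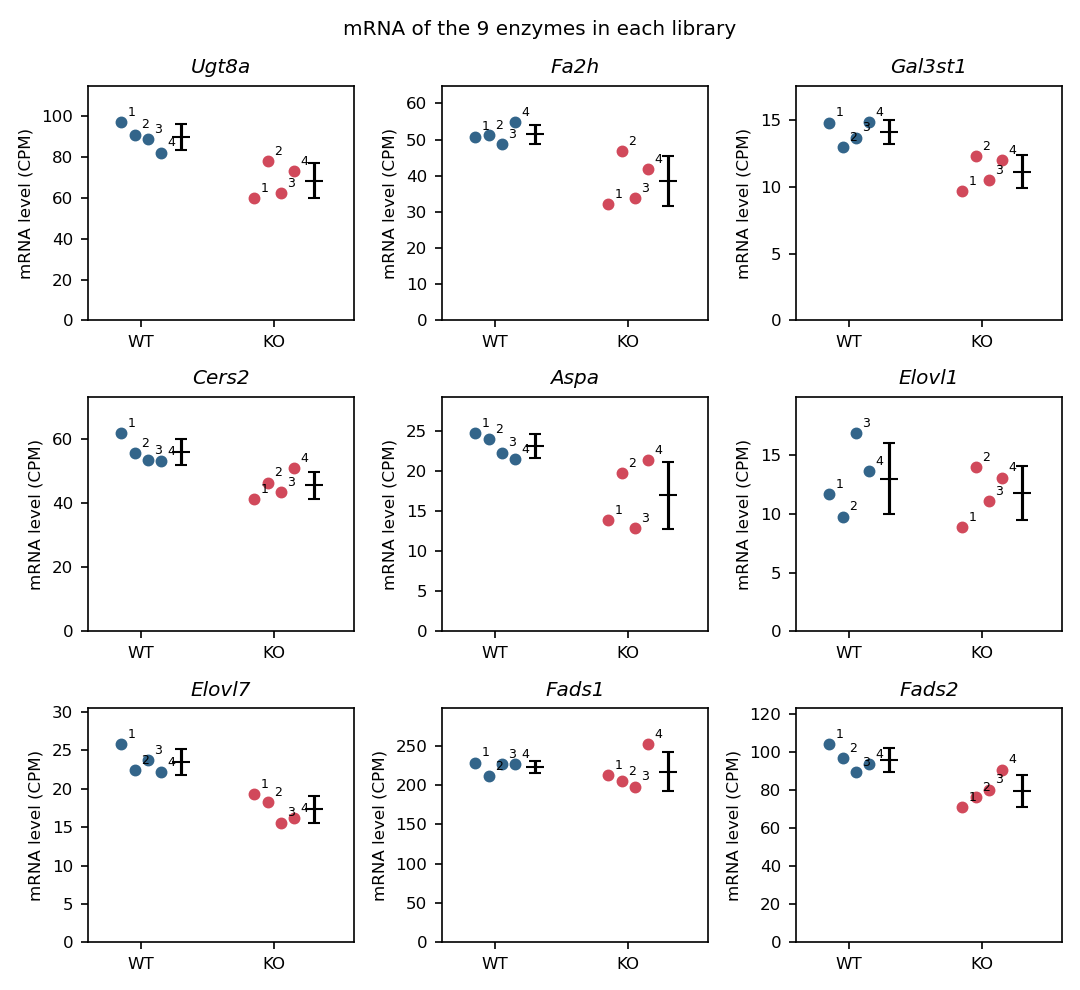
mRNA level in CPM of the TMM library size for each enzyme, with 1 numbered point per library and the mean and SD of 4 libraries beside each group; every axis starts at 0. KO points lie below all WT points for Ugt8a, Fa2h, Gal3st1, Cers2, Aspa and Elovl7, while Elovl1, Fads1 and Fads2 overlap.

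The galactolipid enzymes were lower in all KO libraries than in any WT library. Values are given here and below in the order of libraries 1 to 4. Ugt8a mRNA had WT levels of 97.2, 90.9, 88.7 and 82.0 CPM and KO levels of 60.0, 77.9, 62.3 and 73.2 CPM. The groups did not overlap, and KO libraries 1 and 3 were the lowest. The log2 fold change was −0.39 ± 0.09 (SE), a level 23.8% lower, and its 95% interval ran from −0.60 to −0.18 (edgeR adjusted p = 0.337, rank 54 of 13058 by p). Its adjusted p ranged from 0.0314 to 0.639 over the alternatives.

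Fa2h mRNA stood at 50.8, 51.2, 48.7 and 54.9 CPM in WT and 32.1, 46.8, 33.8 and 41.8 CPM in KO. KO libraries 1 and 3 were again the lowest. The log2 fold change was −0.41 ± 0.12 (SE, edgeR adjusted p = 0.337). Gal3st1 mRNA stood at 14.8, 13.0, 13.7 and 14.9 CPM in WT and 9.69, 12.3, 10.5 and 11.96 CPM in KO, without overlap. Its log2 fold change was −0.34 ± 0.11 (SE, edgeR adjusted p = 0.388).

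Of the enzymes that supply very long acyl chains, Cers2 and Elovl7 separated the groups and Elovl1 did not. Cers2 mRNA stood at 61.9, 55.5, 53.5 and 53.0 CPM in WT and 41.3, 46.3, 43.5 and 50.8 CPM in KO (log2 fold change −0.30 ± 0.08, SE, edgeR adjusted p = 0.337). Elovl7 mRNA stood at 25.8, 22.4, 23.7 and 22.1 CPM in WT and 19.3, 18.3, 15.6 and 16.2 CPM in KO. Unlike in the galactolipid enzymes, the 2 lowest KO libraries were 3 and 4. Its log2 fold change was −0.44 ± 0.10 (SE), a level 26.3% lower, and its 95% interval ran from −0.66 to −0.22 (edgeR adjusted p = 0.337, rank 34 of 13058). Its adjusted p ranged from 0.0245 to 0.639 over the alternatives. Elovl1 mRNA stood at 11.7, 9.76, 16.9 and 13.6 CPM in WT and 8.88, 14.0, 11.1 and 13.1 CPM in KO. The groups overlapped widely, and the log2 fold change was −0.14 ± 0.19 (SE, edgeR adjusted p = 0.832). Its 95% interval, −0.56 to 0.27, holds both 0 and the Ugt8a value. Without WT library 3 the value was 0.0084, and without both WT libraries 1 and 2 it was −0.37.

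Aspa mRNA, for the acetate-releasing enzyme, stood at 24.8, 24.0, 22.4 and 21.5 CPM in WT and 13.9, 19.8, 12.9 and 21.4 CPM in KO. KO libraries 1 and 3 were far below the rest, while KO library 4 nearly matched WT library 4. The log2 fold change was −0.45 ± 0.16 (SE), 26.6% lower and the largest of the 9 in size, with an edgeR adjusted p of 0.406.

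Of the desaturases, Fads2 was at an unadjusted p under 0.05 and Fads1 was not. Fads2 mRNA stood at 104, 96.6, 89.4 and 93.7 CPM in WT and 71.1, 76.3, 80.2 and 90.8 CPM in KO. KO library 4 lay above WT library 3, and the other KO libraries lay below all WT libraries. Its log2 fold change was −0.27 ± 0.08 (SE, edgeR adjusted p = 0.363). Fads1 mRNA stood at 228, 211, 226 and 226 CPM in WT and 213, 205, 198 and 252 CPM in KO, where KO library 4 was the highest of all 8. Its log2 fold change was −0.04 ± 0.08 (SE, edgeR adjusted p = 0.899). The 95% bounds were −0.22 and 0.14, and the value was 0.0053 without KO library 3. The difference between the fold changes of Fads1 and Fads2 was not tested.

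The 4 KO libraries did not share 1 size of difference. Relative to the WT mean, the median deviation of the 9 enzymes in log2 mRNA CPM was −0.51 in KO library 1, −0.20 in library 2, −0.42 in library 3 and −0.14 in library 4. KO library 1 was the lowest of the 4 for 6 enzymes and KO library 3 for the other 3, Aspa, Elovl7 and Fads1. The mean deviation of 9 markers of mature oligodendrocytes, among them Mbp and Mobp, was −0.63, −0.17, −0.75 and −0.30 in the same libraries. These markers were themselves below 0 in 9 of 9 genes, 8 at an unadjusted p under 0.05, with a median of −0.42, and their summed mRNA level was 7047 to 7727 CPM in WT and 4557 to 6293 CPM in KO. Markers of oligodendrocyte precursors or newly formed cells summed to 413 to 435 CPM in WT and 315 to 393 CPM in KO. Bcas1 (153 CPM) and Olig1 (118 CPM) had the highest WT means among them. Of these 8 markers, 7 were below 0 and 1 above (median −0.23), with 0 at an unadjusted p under 0.05. In whole tissue, fewer cells of a type and less RNA per cell cannot be told apart.

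**Figure D3:**
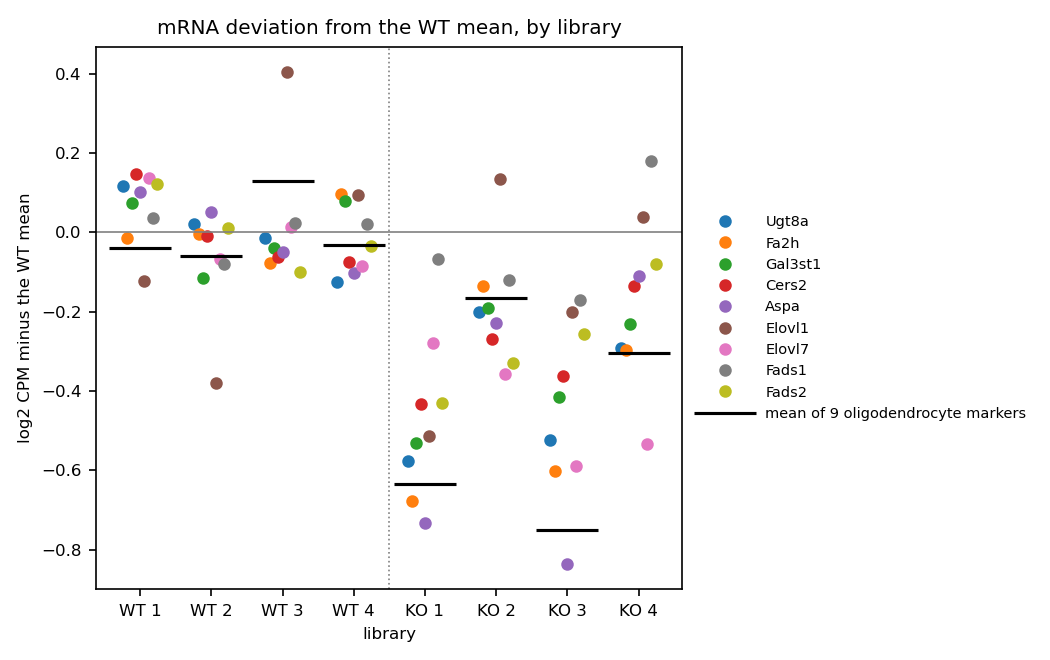
Deviation of each enzyme from its WT mean in log2 mRNA CPM, by library; coloured points are the 9 enzymes and black bars the mean of 9 oligodendrocyte markers. KO libraries 1 and 3 hold the lowest points and the lowest bars (−0.63 and −0.75), and Fads1 and Elovl1 lie above most other enzymes in KO libraries 2 and 4.

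The enzymes were also set against the mean of the 9 mature oligodendrocyte markers within each library. The KO minus WT difference of log2 mRNA CPM relative to the marker mean was −0.01 for Aspa, 0.02 for Elovl7, 0.04 for Fa2h and 0.07 for Ugt8a. It was 0.12 for Gal3st1, 0.16 for Cers2, 0.19 for Fads2, 0.33 for Elovl1 and 0.42 for Fads1. The relative levels of Fads1 were −0.50, −0.59, −0.68 and −0.52 in WT and −0.0052, −0.53, 0.0078 and −0.09 in KO, so that 3 KO libraries lay above all WT libraries and KO library 2 lay among them. The groups overlapped for all 9 enzymes on this scale. The share of all genes that overlap on it was not computed, so nothing about the enzymes is read from this count. The markers come from the same libraries, and this scale says nothing of the number of cells.

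Footprint estimates of the enzymes lay on both sides of 0. Of the 7 that passed the filter on low counts (all but Gal3st1 and Elovl1), 0 passed edgeR's test among 8476 genes, of which 0% (0 genes) passed and 468 had an unadjusted p under 0.05. DESeq2 called 0 of the 7 and 0.0472% of all genes it adjusted. The count at an unadjusted p under 0.05 was 0 of 7 in either direction, where 2.64% of all genes were lower and 2.88% higher at that level. The log2 fold change was below 0 in 4 of 7 and in 50.4% of all genes, with a median of −0.03 against −0.00 over all genes. The groups overlapped in all 7, where 2.04% of all genes had KO below WT and 1.57% above without overlap. The median SE of a log2 fold change over all genes was 0.29 in footprints and 0.11 in mRNA. The 95% footprint interval held the mRNA estimate in 6 of the 7 enzymes, and that of Elovl7, from −0.21 to 1.51, did not. Footprints of the 9 mature oligodendrocyte markers were below 0 in 9 of 9 genes, 3 at an unadjusted p under 0.05, with a median of −0.36. Their summed footprint level was 2461 to 2971 CPM in WT and 1710 to 2165 CPM in KO, without overlap.

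**Figure D4:**
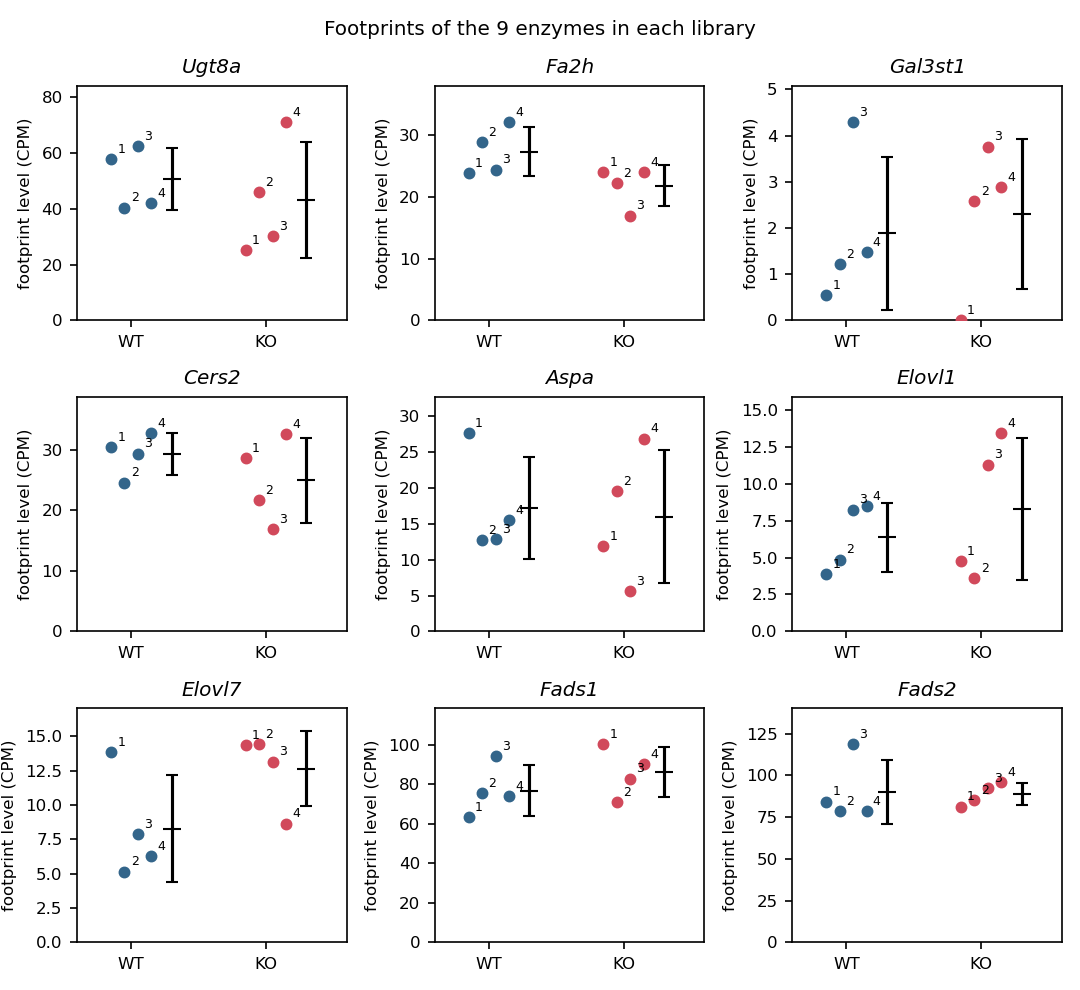
Footprint level in CPM of the TMM library size for each enzyme, with 1 numbered point per library and the mean and SD of 4 libraries beside each group; every axis starts at 0. The groups overlap in every panel, KO library 4 is the highest of all 8 for Ugt8a (71.1 CPM), and Gal3st1 is at 0 in KO library 1.

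Ugt8a footprints stood at 57.7, 40.4, 62.3 and 42.1 CPM in WT and 25.1, 46.0, 30.1 and 71.1 CPM in KO. The counts behind them were 104, 133, 174 and 114 for WT, against 21, 89, 16 and 74 for KO. KO library 4 was above all WT libraries and KO libraries 1 and 3 below them. The log2 fold change was −0.19 ± 0.28 (SE, edgeR adjusted p = 0.963), and without KO library 1 it was 0.0029.

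Fa2h footprints stood at 23.8, 28.8, 24.4 and 32.1 CPM in WT and 23.9, 22.2, 16.9 and 24.0 CPM in KO. Of the 7 it had the most negative footprint difference (−0.31 ± 0.23, SE, edgeR adjusted p = 0.899), with KO library 3 at 9 counts. Cers2 stood at 30.5, 24.6, 29.4 and 32.8 CPM in WT and 28.7, 21.7, 16.9 and 32.7 CPM in KO (−0.21 ± 0.24, SE, edgeR adjusted p = 0.940). Gal3st1, the sulfotransferase, had WT counts of 1, 4, 12 and 4 and KO counts of 0, 5, 2 and 3. A count of 0 in KO library 1 allows up to 3.59 CPM at 3 counts, above the level of 3 of the 4 WT libraries.

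Aspa footprints stood at 27.7, 12.7, 12.9 and 15.5 CPM in WT and 11.95, 19.6, 5.64 and 26.9 CPM in KO, with 3 counts in KO library 3. WT library 1 and KO library 4 were high, and the log2 fold change was 0.02 ± 0.40 (SE, edgeR adjusted p = 0.996). Elovl1 had 7 to 23 footprint counts in WT and 4 to 14 in KO.

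Elovl7 footprints stood at 13.9, 5.16, 7.88 and 6.27 CPM in WT and 14.3, 14.5, 13.2 and 8.64 CPM in KO. WT library 1 lay among the KO libraries, and the other WT libraries below all of them, on WT counts of 25, 17, 22 and 17 and KO counts of 12, 28, 7 and 9. The log2 fold change was 0.65 ± 0.40 (SE, edgeR adjusted p = 0.881), opposite in sign to its mRNA.

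Fads1 footprints stood at 63.2, 75.6, 94.2 and 73.8 CPM in WT and 100.4, 70.8, 82.8 and 90.3 CPM in KO (0.16 ± 0.17, SE, edgeR adjusted p = 0.937). Fads2 stood at 84.3, 78.6, 118.9 and 78.6 CPM in WT and 81.3, 85.2, 92.2 and 96.1 CPM in KO (−0.03 ± 0.17, SE, edgeR adjusted p = 0.994). These were the best measured of the 9, and their 95% intervals ran from −0.21 to 0.52 for Fads1 and from −0.39 to 0.34 for Fads2.

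Translational efficiency, the footprint level relative to mRNA, was compared through a genotype by library kind term, fitted by edgeR to both kinds of library at once over 9673 genes. This fit uses 1 estimate of scatter per gene for both kinds, so its SE, intervals and p-values can understate the scatter of the footprints. The estimate was above 0 in 9 of 9 enzymes, where 50% of all genes were, with a median of 0.25 on the log2 scale against 0.00 over all genes. The same mRNA libraries enter this ratio and the mRNA comparison above, so the 2 sets of signs are not separate observations. Of all genes 0% (0 genes) passed and 1046 had an unadjusted p under 0.05, and 0 of 9 enzymes passed. At an unadjusted p under 0.05, 1 enzyme, Elovl7, was higher, where 5.26% of all genes were. The median over the enzymes was 0.09 without WT libraries 1 and 2, and 8 of 9 estimates were then above 0, as were 50.4% of all genes. Some markers of other cells had opposite signs in the like-named mRNA and footprint libraries. The 5 hypothalamic neuropeptide genes tested had a median log2 fold change of −4.43 in mRNA and 6.22 in efficiency. Summed footprints of all 7 listed genes of this kind were 4.86 to 64.9 CPM in WT and 59.6 to 110.0 CPM in KO. Of the 8 neuron markers, 7 were below 0 in footprints (median −0.11) and 7 in efficiency (median −0.23). Efficiency of the 9 oligodendrocyte markers was above 0 in 6, with a median of 0.06. The part of such differences in makeup in the enzymes' efficiency estimates was not tested.

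The log2 footprint to mRNA ratio of Elovl7 was −0.89, −2.05, −1.56 and −1.78 in WT, against −0.44, −0.36, −0.27 and −0.89 in KO. The lowest KO value, of library 4, and the highest WT value, of library 1, were apart only in the third decimal. The groups overlapped in every other enzyme, and the share of all genes without overlap was not computed for this ratio. The efficiency difference was 1.15 ± 0.35 (SE), with 95% bounds of 0.42 and 1.88 (unadjusted p = 0.0034, edgeR adjusted p = 0.232, rank 140 of 9673). That SE is below the 0.40 of the Elovl7 footprint difference alone, so these bounds and p-values are probably too narrow and too low. DESeq2 gave an adjusted p of 0.0205 for it and called 1.55% of the genes it adjusted. Over all alternatives the adjusted p ranged from 0.0205 to 0.498.

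The other 8 enzymes had smaller or less precise efficiency differences. The estimates were 0.25 ± 0.28 for Ugt8a, 0.12 ± 0.24 for Fa2h and 0.57 ± 0.69 for Gal3st1 (SE). They were 0.10 ± 0.23 for Cers2, 0.36 ± 0.51 for Elovl1 and 0.55 ± 0.39 for Aspa (SE). Fads1 had 0.20 ± 0.19 and Fads2 0.25 ± 0.19 (SE), and the edgeR adjusted p of these 8 lay between 0.641 and 0.912.

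**Figure D5:**
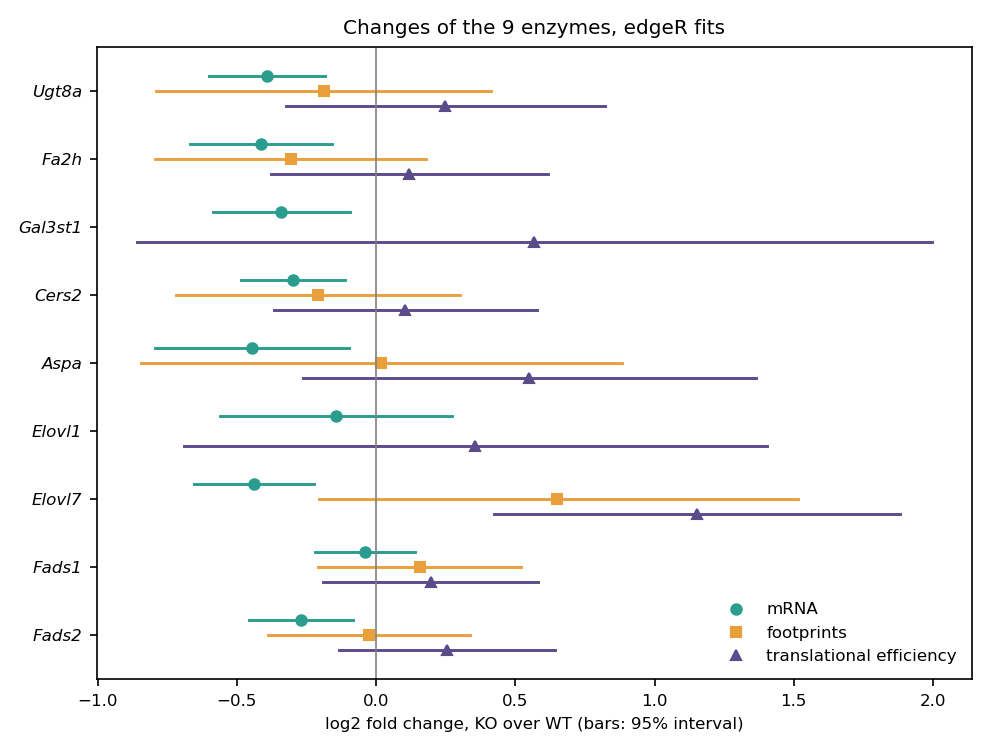
KO over WT log2 fold changes of mRNA, footprints and translational efficiency for each enzyme, with 95% intervals from edgeR. All 9 mRNA values lie below 0 with a median of −0.34, the 7 footprint values lie on both sides of 0, and Elovl7 has the highest translational efficiency difference (1.15).

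In 6 lists of enzymes that work before, beside and after these 9, 0 genes passed edgeR over all genes, and the median mRNA log2 fold changes of the lists lay between −0.05 and 0.03. Of the lysosomal breakdown of galactolipids, 5 of 7 genes were below 0, with 0 at an unadjusted p under 0.05 and a median log2 fold change of −0.01. Galc, which removes galactose from galactosylceramide, had −0.12 ± 0.07 (SE), Psap, the saposin precursor, 0.04 ± 0.05 and Gla 0.05 ± 0.11. Of the other genes of ceramide and sphingolipid synthesis, 11 of 14 were tested and 5 of 11 were below 0 (median 0.01, 0 at an unadjusted p under 0.05). Among these, Ugcg, which makes glucosylceramide from the same ceramide substrate as Ugt8a, had 0.15 ± 0.07 (SE), Sptssa, a subunit of serine palmitoyltransferase, −0.14 ± 0.08, and the ceramide synthase Cers4 −0.09 ± 0.06.

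In other elongation and desaturation genes, 13 of 15 were tested and 11 were below 0, with a median of −0.05 and 1 lower at an unadjusted p under 0.05. That gene was Hsd17b12, the ketoacyl reductase of the elongation cycle (−0.16 ± 0.07, SE, edgeR adjusted p = 0.450). Elovl4, an elongase of neurons and retina, had 0.11 ± 0.07 and the dehydratase Hacd2 −0.09 ± 0.09. Ether lipid synthesis had 6 of 8 below 0 (median −0.03), with Gnpat at −0.12 ± 0.07, Tmem189 at −0.13 ± 0.09 and Pex5 at 0.08 ± 0.08, and 0 at an unadjusted p under 0.05. Peroxisomal oxidation of very long chains had 6 of 8 below 0 (median −0.04). The transporter Abcd2 was the 1 gene at an unadjusted p under 0.05 there, at 51.3 ± 9.14 CPM in WT and 65.9 ± 10.4 CPM in KO (0.36 ± 0.14, SE, edgeR adjusted p = 0.427). Pex13, a component of the peroxisomal import machinery, had −0.10 ± 0.09 (SE).

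The supply of acetylaspartate, acetate and fatty acids held genes on both sides, 5 of 11 below 0 with a median of 0.03. Nat8l, which makes N-acetylaspartate in neurons, stood at 430 ± 98.2 CPM in WT and 566 ± 64.5 CPM in KO (0.40 ± 0.15, SE, edgeR adjusted p = 0.421). Folh1, which releases N-acetylaspartate from its glutamate dipeptide, stood at 8.50 ± 0.917 and 6.13 ± 0.666 CPM (−0.47 ± 0.14, SE, edgeR adjusted p = 0.337). Slc25a1, the mitochondrial citrate carrier, stood at 35.8 ± 2.10 and 28.9 ± 4.19 CPM (−0.31 ± 0.10, SE, edgeR adjusted p = 0.397). So in mRNA the synthetic enzyme of N-acetylaspartate had a higher mean in KO and the cleaving enzyme Aspa a lower one. Neither passed, and of all 13058 genes 0 did. Footprint log2 fold changes were 0.09 ± 0.16 for Nat8l and 0.02 ± 0.40 for Aspa (SE). Of the 8 neuron markers, 7 had an mRNA log2 fold change above 0 (4 at an unadjusted p under 0.05) and 1 was lower at that level, with a median of 0.10. Their part in the Nat8l value was not tested.

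The mRNA profile nearest to the mean profile of the 9 enzymes over the 8 libraries was that of Gatm, the first enzyme of creatine synthesis. Nearness was the root mean square difference of centred log2 CPM, which was 0.042 for Gatm against a median of 0.238 over 11822 protein-coding genes. Gatm stood at 105 ± 3.61 CPM in WT and 84.0 ± 9.27 CPM in KO (−0.32 ± 0.08, SE, edgeR adjusted p = 0.337). The next genes outside the set were 1110059E24Rik (0.050), Spg20 (0.057), Gab1 (0.061) and Reep3 (0.062), with log2 fold changes from −0.28 to −0.23. Among the enzymes themselves, Gal3st1 ranked 3, Cers2 8, Ugt8a 17, Fads2 68 and Fa2h 113 by nearness. Each enzyme is part of the mean it is set against, so its nearness is partly built in, unlike that of other genes. Aspa (1031), Elovl7 (1035) and Fads1 (1148) were farther away and Elovl1 (5717) was farthest, while the myelin genes Mobp and Mbp ranked 24 and 66.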

How the data were processed

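The authors deposited raw counts per gene for footprint and mRNA libraries in 1 table, with gene length, and RPKM in 2 others, per the file headers. The deposited RPKM matched counts per length once libraries were scaled by DESeq2 size factors. TopHat2 and mm10 are named in the submitters' processing notes, and the counting program is not given in the sources used here. The mRNA columns carry the names of the footprint libraries and were grouped by them. The enzymes, gene lists and tests were chosen with earlier results of these data known.

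Counts were tested with edgeR 4.0.16 in R 4.3.3 (TMM, quasi-likelihood, Benjamini-Hochberg over all genes tested), with KO over WT as the direction. mRNA genes needed a mean RPKM of at least 1, footprint genes the filterByExpr minimum count of 10, and efficiency genes that same mean RPKM in footprints and in mRNA. CPM use the TMM library size and log2 CPM a prior count of 2. Alternatives were DESeq2 1.42.0, upper quartile sizes, protein-coding genes only, limma 3.58.1 on log2 RPKM with 0.1 or 1 added, a replicate block, other filters, and leaving out each library. An alternative with same-name libraries as a block was added after seeing the data. The scripts were tested on simulated data with planted 3-fold changes. These are larger than any difference estimated for the enzymes, so that test does not show whether differences of their size would be found. Footprint read lengths and frame were not analysed here. Intervals and the limit for a count of 0 (3 counts) cover what each model or count gives and no other error. Named genes were the enzymes, Nsun5, up to 3 genes per pathway list with the lowest unadjusted mRNA p, up to 3 per marker list with the highest mean mRNA RPKM, and the 5 nearest profiles. Markers at 0 and DESeq2 calls were named after their values were seen. Some genes that this rule names are not reported here.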

Additional observations from a re-analysis of the deposited data

Results flagged for a closer look

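2 of 36 groups of 4 libraries held a library far from the other 3, where chance gives about 1 in 20. Fads1 mRNA in WT library 2 was 211 CPM, and its gap to the next library was 0.871 of the group's range, 211 to 228 CPM. Fads2 footprints in WT library 3 were at 118.9 CPM, with a gap of 0.859 of the range from 78.6 to 118.9 CPM.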

How the results depend on the processing

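Footprint depth limits the footprint and efficiency results, with 0.233 M protein-coding counts in KO library 3. For mRNA, genes called by the adjusted p were 0 in the reported fit, 87 by DESeq2 (2 of the 7 enzymes it adjusted), 24 without a filter and 0 to 2 when each library was left out. The enzymes' median mRNA log2 fold change was −0.28 by limma with 1 added and −0.39 to −0.28 without each library. When single libraries were left out, Elovl1 reversed without WT library 3 (0.0084, others down to −0.26) and Fads1 without KO library 3 (0.0053, others down to −0.12). Without both WT libraries 1 and 2, Elovl1 stood at −0.37 and Fads1 at −0.06.

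For footprints, 4 genes were called by DESeq2 and 3 among protein-coding genes only, and the enzymes' median was −0.22 by limma with 0.1 added and −0.28 to 0.018 without each library, lowest without KO library 4. Ugt8a reversed without KO library 1 (0.0029, others down to −0.51). Aspa reversed to −0.011 with upper quartile sizes, −0.22 and −0.13 by limma with 0.1 and 1 added, −0.052 with the replicate block and −0.0066 at a minimum count of 1, and ranged from −0.28 to 0.32 without each library. Fads2 reversed to 0.0061 and 0.0057 by limma and 0.0045 with the replicate block, and ranged from −0.088 to 0.15 without each library.

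For translational efficiency, 150 genes were called by DESeq2 (1 of the enzymes), 1 with the replicate block, 5 with same-name libraries as a block and 0 to 4 without each library, where the enzymes' median was 0.17 to 0.36. Ugt8a (−0.040, others up to 0.38) and Elovl1 (−0.068, others up to 0.87) reversed without KO library 4, and Cers2 (−0.067) without WT libraries 1 and 2. The cause of these reversals was not tested. Gal3st1 gave an efficiency value in 4 of 8 fits that left out a library, and a mean RPKM of at least 5 left 5 enzymes. Same-number WT and KO libraries correlated at −0.24 to 0.03 in mRNA and −0.25 to 0.07 in footprints. No pairing was seen, and such correlations cannot exclude a weak one. The replicate block called 0 genes for mRNA and footprints.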
